A study of Mus musculus with 8 samples.

Results

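The genes described here are the 7 T helper lineage and lymphocyte receptor genes among the 68 target genes of a custom NanoString nCounter panel, measured in whole colon of mice on a control or a high salt diet. They were taken by name from the panel: T-bet and CXCR3 for type 1 immunity, GATA-3 for type 2, and CCR6, Il23r, Il17a and Il22ra2 for type 17. The nCounter counts fluorescent barcodes hybridized to each RNA, with no amplification. The animals were specific pathogen-free C57BL/6 mice of 7 to 10 weeks, and the high salt diet was the control diet with 4% NaCl added, given for 1 week. RNA was pooled before it was measured, so that 10 mice per diet gave 4 pools per diet. Mice 1, 2 and 3 of each sex were pooled, called the male and the female trio here, and so were mice 4 and 5, called the male and the female pair. The numbers name different animals on the 2 diets. A pool averages 2 or 3 mice, and p-values here measure the spread between pools.

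Helper T cells take on a lineage under the control of a master transcription factor. T-bet drives type 1 cells, which carry the chemokine receptor CXCR3, and GATA-3 drives type 2 cells. Type 17 cells carry the chemokine receptor CCR6 and the interleukin 23 receptor and secrete interleukin 17A. They are common in the gut, where interleukin 17A and interleukin 22 act on the epithelium. None of these genes belongs to helper T cells alone. T-bet and CXCR3 are also found in natural killer and cytotoxic T cells, GATA-3 in innate lymphoid cells and some epithelia, CCR6 in B cells, and Il22ra2, the soluble decoy receptor of interleukin 22, mainly in dendritic cells. In RNA from whole colon, fewer cells of a type and less RNA per cell cannot be told apart.

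The deposited values are normalized counts, scaled by the authors so that the 3 reference genes had the same geometric mean, 772.9, in every pool. A value that fell too low was listed as the geometric mean of the 6 negative control probes of its pool, called the floor here. The floors were 2.40, 2.74, 1.59 and 3.66 in the control pools and 6.51, 5.11, 1.59 and 2.09 in the high salt pools, in the order male trio, male pair, female trio, female pair, which is used throughout. Whole barcode counts could be recovered for values above the floor. The recovered totals ran from 13574 to 74270 in control pools and from 26893 to 169300 in high salt pools, and 1 count was worth between 0.409 and 3.85 normalized counts. The epithelial genes Cdh1, Tff3 and Muc2 were above the floor in all 8 pools. Their summed level was 27488 to 85042 on the control diet and 42130 to 68703 on the high salt diet. The summed level of the 4 small intestine and Paneth cell genes was 692 to 3468 on the control diet and 1812 to 5385 on the high salt diet. Their means on the control and the high salt diet were 1030 and 3029 for I-FABP, 134 and 405 for Reg3g and 430 and 416 for Lyz1. Defcr1 was at the floor in 7 of 8 pools. The part of tissue sampling in the results was not tested.

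The 7 genes ranked from 39th to 67th of the 68 by mean signal, and each was above the floor in 2 to 8 of the 8 pools. Over the 8 pools, 37 of their 56 values (66.1%) lay above the floor, against 463 of 544 (85.1%) for all target genes. CXCR3 was above the floor in 8 pools, GATA-3 and Il22ra2 in 7, CCR6 in 6, Il23r in 5, and T-bet and Il17a in 2. By type, this came to 10 of 16 values (62.5%) for type 1, 7 of 8 (87.5%) for type 2 and 20 of 32 (62.5%) for type 17. Each type thus held both a gene near background and a better measured one, apart from type 2, which had a single gene. Of the 68 target genes, 47 were above the floor in all pools, and CXCR3 was the only one of the 7 among them.

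T-bet, the master factor of type 1 cells, and Il17a, the signature cytokine of type 17 cells, were measured above the floor in the fewest pools. Their levels on the normalized count scale, with floors taken as values, ranked 64th and 67th of 68 by mean over the 8 pools. Il22ra2 had the highest mean of the 7, 25.2 ± 13.1 (SD, n = 8 pools), which ranked 39th. GATA-3 (15.8 ± 11.3) and CXCR3 (15.8 ± 7.71) ranked 44th and 45th, CCR6 (9.29 ± 5.69) 51st and Il23r (6.57 ± 2.64) 58th. The median of the 68 gene means was 33.9. Probes differ in efficiency, so this is an order of probe signals and not of transcript numbers. Within pools the order of the genes above the floor varied. Il22ra2 was the highest in 6 pools, CXCR3 in the control male trio, and GATA-3 in the high salt female trio.

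**Figure D1:**
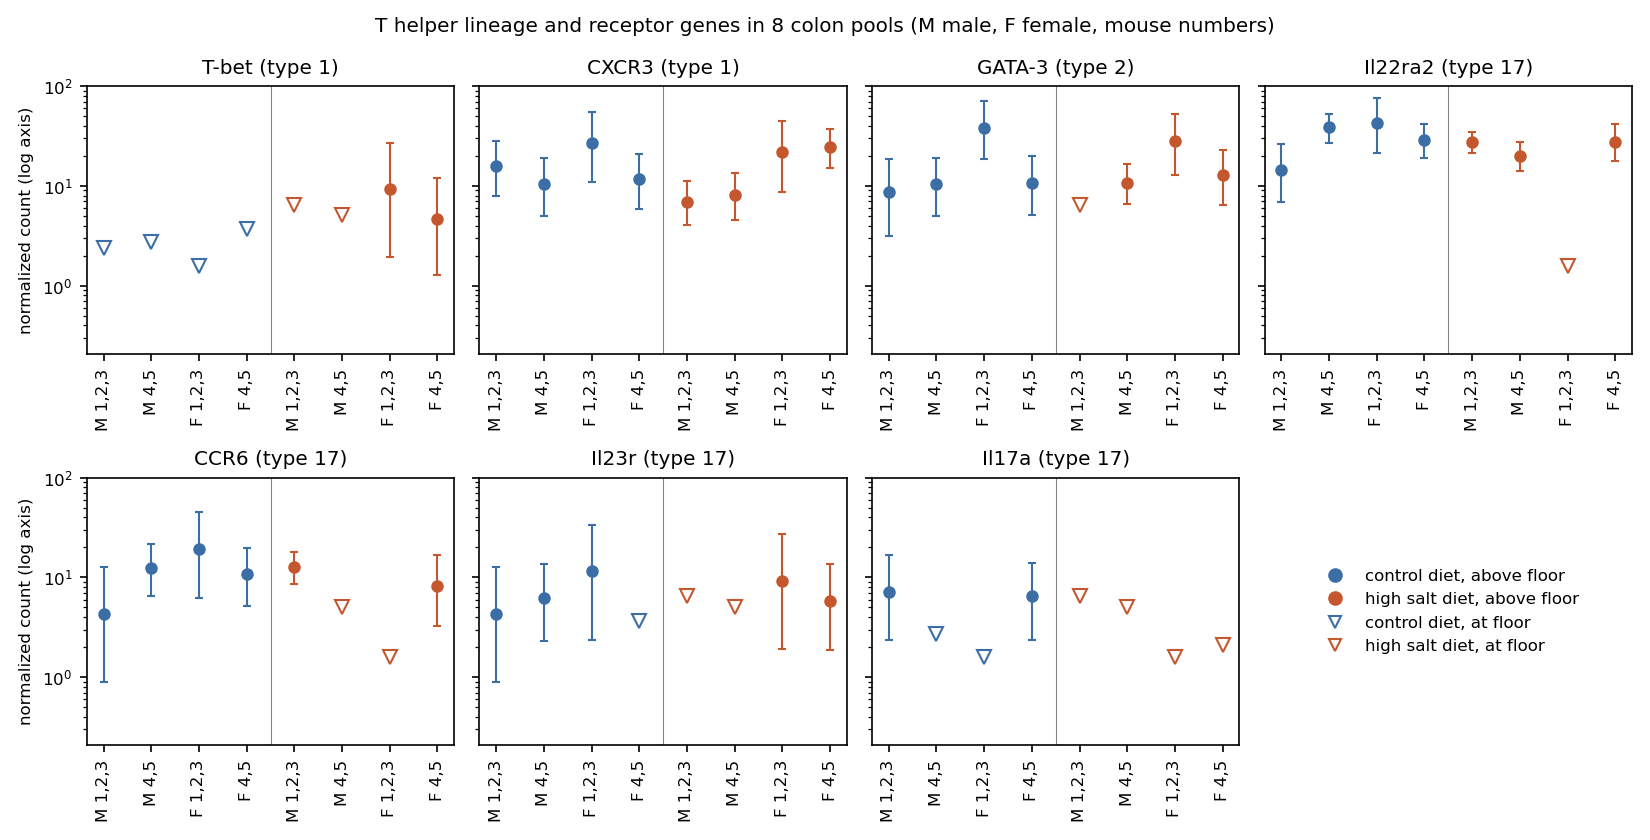
Normalized count (log axis) of each of the 7 genes in the 8 colon pools, 4 on the control diet (left of the line) and 4 on the high salt diet. Filled points are values above the floor with exact 95% Poisson intervals on the recovered count, and open triangles are values listed at the floor of the pool. CXCR3 has no triangle, and T-bet and Il17a have 6 each.

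A stricter limit was the highest of the 6 negative control probes, which reached 8, 7, 4 and 10 counts in the control pools and 18, 17, 2 and 7 in the high salt pools. Above it lay 23 of the 56 values (41.1%), against 72.4% of the values of all target genes. Il22ra2 passed this limit in 7 pools, CXCR3 in 6, GATA-3 in 5 and CCR6 in 3. T-bet and Il23r passed it in 1 pool each, the high salt female trio, and each with 3 counts. Il17a passed it in no pool. The levels of Il22ra2, CXCR3 and GATA-3 therefore rest on the most signal. Those of CCR6, T-bet, Il23r and Il17a cannot be told from single negative control probes in most pools.

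**Figure D2:**
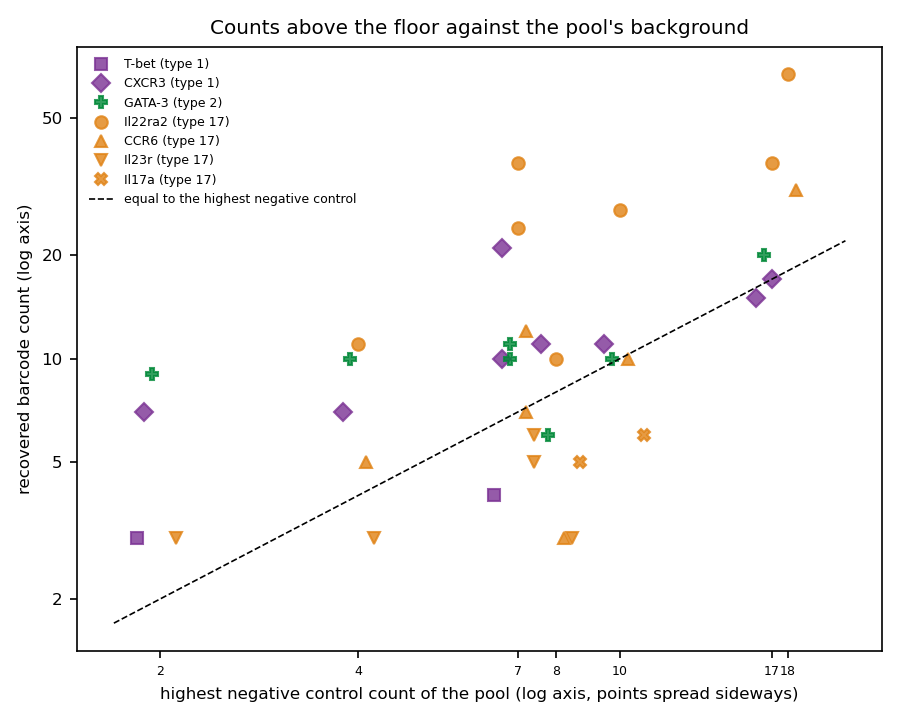
Recovered barcode counts of the 37 values above the floor against the count of the highest negative control probe of the same pool, both on log axes, with points spread sideways so that they do not cover each other. The dashed line marks equality: 23 points lie above it, and both Il17a points lie below it.

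The share of type 17 values above the floor was lower on the high salt diet, and the shares of both diets were closer at the stricter limit. On the control diet 13 of 16 type 17 values (81.2%) were above the floor, and on the high salt diet 7 of 16 (43.8%). For all target genes the shares were 87.9% and 82.4%. Above the highest negative control lay 6 of 16 type 17 values (37.5%) on the control diet and 5 of 16 (31.2%) on the high salt diet, and 68% and 76.8% of the values of all target genes. Type 1 values above the floor went the other way, 4 of 8 on the control diet and 6 of 8 on the high salt diet, with T-bet making the difference. At the stricter limit they did not, with 4 of 8 on the control diet and 3 of 8 on the high salt diet. GATA-3 was above the floor in 4 control pools and 3 high salt pools, and above the highest negative control in 2 and 3. The floors hid more counts in the male high salt pools than elsewhere, up to 15 in the trio and up to 9 in the pair, against at most 3 in any other pool. These shares were not tested between diets.

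T-bet (Tbx21) was listed at the floor in all 4 control pools and in both male high salt pools. In the female high salt pools it had 9.31 normalized counts in the trio, from 3 barcodes (95% exact Poisson interval 0.619 to 8.77 barcodes), and 4.65 in the pair, from 4 barcodes (1.09 to 10.2). Such intervals cover counting error only. All 4 high salt values were listed above all 4 control values, and in the 2 male pools this was the height of the floor. On the deposited scale T-bet was the only target gene whose diets did not overlap with the high salt diet higher, 1.47% of the 68, and none did after centring (0%). The two-sided exact permutation p was 0.0286 on the deposited scale, the smallest that 4 pools against 4 allow, and 0.171 after centring.

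CXCR3, the receptor that brings type 1 lymphocytes to inflamed tissue, was above the floor in the most pools of the 7, and above the highest negative control in 6, against 7 for Il22ra2. Its normalized counts were 15.82, 10.42, 26.98 and 11.81 in the control pools and 6.96, 8.10, 21.72 and 24.40 in the high salt pools. The diets overlapped: the 2 lowest values were the male high salt pools, and the female high salt pools lay within the range of the controls. Those male pools were also the 2 in which CXCR3 did not pass the highest negative control. It had 17 barcodes in the trio and 15 in the pair, against 18 and 17 for that control. The mean was 16.3 ± 7.51 on the control diet and 15.3 ± 9.04 on the high salt diet (SD, n = 4 pools each). These values stood on 7 to 21 barcodes per pool.

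GATA-3, the factor of type 2 cells, had 8.63, 10.42, 38.54 and 10.74 normalized counts in the control pools. On the high salt diet it was at the floor of 6.51 in the male trio and had 10.80, 27.93 and 12.78 in the others. The 2 highest values were the female trios of either diet, which had the lowest totals of barcodes. The values stood on 10 barcodes in the control pool and 9 in the high salt pool. The diet means were 17.1 ± 14.3 and 14.5 ± 9.32 (SD, n = 4 pools each, the floor taken as a value). Gpr44, the prostaglandin D2 receptor of type 2 cells and the other type 2 gene of the panel, was above the floor in 4 of 8 pools with a mean of 5.95.

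Among the type 17 genes, Il22ra2 had the highest mean and CCR6 the next. Il22ra2 had 14.38, 38.56, 42.40 and 28.99 normalized counts in the control pools and 27.43, 19.98, the floor of 1.59, and 27.88 in the high salt pools. The value at the floor, in the female trio, stood apart from all others. That floor can hide at most 1 barcode, whose upper 95% Poisson limit corresponds to 17.3 normalized counts. The next lowest high salt value was 19.98, from 37 barcodes, with an interval from 14.1 to 27.5, which reaches below that limit. Of the 3 genes of other leukocytes on the panel, CD11C was also at the floor in that pool and above it in the 7 others, while CD11b and Cd86 had 15.52 each there, for Cd86 its highest value. The summed level of the 3 was 16.7 to 42.4 on the control diet and 27.8 to 37.3 on the high salt diet, and their part in the low value was not tested. Leaving this pool out moved the log2 diet difference of Il22ra2 from -1.06 to -0.49.

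CCR6, which leads lymphocytes to the chemokine of the gut epithelium, had 4.31, 12.51, 19.27 and 10.74 normalized counts in the control pools. On the high salt diet it had 12.69 in the male trio and 8.13 in the female pair and was at the floor in the others. The high salt value of 12.69 came from 31 barcodes, the highest count of CCR6, and lay inside the range of the controls. The hidden counts of the floored pools correspond to at most 4.86 and 3.10 normalized counts, of which the first lies above the lowest control value.

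Il23r, the receptor that maintains type 17 cells, had 4.31, 6.25 and 11.56 normalized counts in the control pools and the floor of 3.66 in the female pair. On the high salt diet both male pools were at the floor, and the female pools had 9.31 and 5.81. Its 5 values above the floor came from 3 to 6 barcodes, and the high salt values lay within the range of the controls. Il17a was above the floor only in the control male trio (7.19, from 5 barcodes) and the control female pair (6.44, from 6 barcodes). Neither gene was called between diets, and its measured values stood on 6 barcodes or fewer.

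The start sites of the type 17 genes are shown because RORγt, the master factor of this lineage, is not among the 7 genes, and its core motif AGGTCA can be read in their promoters. Promoter windows of RefSeq (GRCm38.p6), from 250 bases before to 50 after each start, were matched for 6 of the 7 genes, in 7 windows, since Ccr6 has 2. Il22ra2 was not matched. The motif was searched on both strands, and its matches are in capitals with 20 bases on each side, 5′ to 3′ on the gene's strand, TGACCT being the motif on the opposite strand. The first is chr17:8235979-8236024 (+), 44 bases before a Ccr6 start. The next are chr6:67492059-67492104 (-) and chr6:67491896-67491941 (-), 229 and 66 bases before the Il23r start. The last is chr1:20730765-20730810 (+), 120 bases before the Il17a start.
CCR6: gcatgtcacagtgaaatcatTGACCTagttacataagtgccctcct
Il23r, distal: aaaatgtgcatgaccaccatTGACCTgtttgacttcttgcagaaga
Il23r, proximal: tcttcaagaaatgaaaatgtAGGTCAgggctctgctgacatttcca
Il17a: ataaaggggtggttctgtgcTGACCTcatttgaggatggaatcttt
The motif was in 3 of the 7 windows, all of type 17 genes, and in 16.3% of all 32851 promoter windows. The windows of T-bet, CXCR3 and GATA-3 held none. The T-box motif GGTGTGA was in none of the 7 windows (3.98% of all windows), and the GATA site AGATAA in 1, the second Ccr6 window (11.2%). The motifs were chosen after these sequences had been seen, and a match is a description of letters and not a site in use.

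The question of the diet comparison was whether a salt-rich diet alters immune gene expression in the colon. None of the 7 genes passed the test between diets in limma on log2 of the value plus 1, each pool being centred on the median of those 47 genes that no pool listed at the floor. The log2 difference, high salt minus control, was 1.01 for T-bet (SE 0.56, adjusted p = 0.771) and 0.11 for Il23r (SE 0.53, adjusted p = 0.985). It was negative for the others: -0.15 for GATA-3 (SE 0.56, adjusted p = 0.977), -0.19 for Il17a (SE 0.59, adjusted p = 0.964), -0.20 for CXCR3 (SE 0.55, adjusted p = 0.964), -0.80 for CCR6 (SE 0.62, adjusted p = 0.886) and -1.06 for Il22ra2 (SE 0.68, adjusted p = 0.853). The difference of Il22ra2 was the lowest of all 68 genes. None of the 68 genes passed an adjusted p of 0.05 in limma (0%), and 5 (7.35%) had an unadjusted p under it, none of them among the 7. Adding 1 before the logarithm understates the change of low genes.

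By type, the difference was positive for 1 of 2 type 1 genes, negative for the type 2 gene, and negative for 3 of 4 type 17 genes, whose median was -0.49. Over all 7 genes 2 were positive and 5 negative, with a median of -0.19. Over all 68 target genes 44 were positive and 24 negative, with a median of 0.16. The intervals of the estimates were wide. The 95% interval ran from -1.33 to 0.93 for CXCR3, the gene measured in every pool, and from -2.44 to 0.32 for Il22ra2, so that differences of CXCR3 of almost 1 log2 unit in either direction lay inside it. The other lymphocyte genes of the panel were also on the negative side: -0.10 for Gpr44, -0.18 for NFAT, the factor of T cell activation, -0.27 for Cxcr4 and -0.37 for CCR2, chemokine receptors of lymphocytes and monocytes, with adjusted p from 0.964 to 0.985.

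Values at the floor leave a second span, since the hidden count may be anything from 0 to its bound. On the deposited scale, before centring, the difference that the hidden counts allow ran from -0.52 to 2.81 for T-bet, from -1.22 to 0.65 for Il23r and from -2.46 to 0.81 for Il17a, and so had no fixed sign. It ran from -0.86 to -0.15 for GATA-3, from -1.77 to -0.63 for CCR6 and from -1.38 to -0.87 for Il22ra2. The sign of these 3 differences of means on this scale thus did not depend on the hidden counts, although none of the 3 passed the test. For T-bet, setting the highest floor in all pools gave 0.10, and leaving out each pool in turn gave 0.53 to 1.39.

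**Figure D3:**
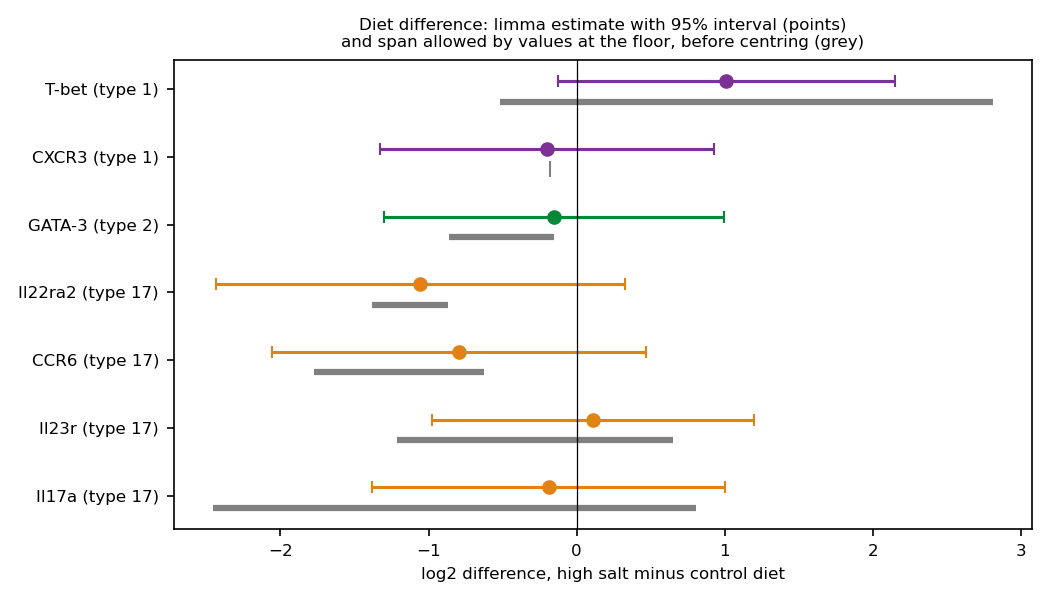
Log2 difference between diets, high salt minus control, for the 7 genes: the points are limma estimates on centred values with 95% intervals (n = 4 pools per diet), and the grey bars are the span that the values at the floor allow, before centring. Every interval crosses 0, and the grey bars of GATA-3, CCR6 and Il22ra2 lie below 0, as does the value of CXCR3, which has no floor value.

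Sex was crossed with diet, 2 pools per sex and diet, and was compared with diet as a covariate. CXCR3 and GATA-3 had the largest differences of the 7, both higher in females. For CXCR3 the centred log2 mean was 4.49 in females and 3.36 in males, a difference of 1.13 (SE 0.43, limma adjusted p = 0.137). All 4 female pools lay above all 4 male pools after centring (two-sided exact permutation p = 0.0286), as for 8 of the 68 genes (11.8%), but not before centring (exact permutation p = 0.0571), when 7 genes (10.3%) did so. In the 2 male high salt pools CXCR3 did not pass the highest negative control. For GATA-3 the difference was 1.21 (SE 0.44, limma adjusted p = 0.134). Over all target genes the median was 0.47 towards females, 1 gene passed an adjusted p of 0.05 (1.47%) and 13 (19.1%) had an unadjusted p under it, CXCR3 and GATA-3 included. Centring on the median deviation of the genes, an alternative chosen after seeing the data, gave 0.61 for CXCR3 and 0.70 for GATA-3. All 3 enteric glia genes also had a positive difference, female minus male, from 0.73 to 1.83, and their summed level was 46.2 to 180 in female and 39.7 to 83.4 in male pools. Of the 3 enteric neuron genes 2, VIP and CHAT, had a positive difference. That of PGP9.5 was -1.09, with 4 of its 8 values at the floor. The sum of the 3 was 377 to 525 in females and 148 to 295 in males, with no overlap. VIP alone ran from 328 to 498 in females and from 120 to 273 in males. It was among the 7 genes (10.3%) without overlap before centring. The part of these tissues in the differences of CXCR3 and GATA-3 was not tested. The other 5 T helper genes had differences from -0.64 for Il17a to 0.46 for Il23r, with adjusted p from 0.564 to 0.968.

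The diet difference of Il22ra2 was -0.10 in males and -2.02 in females, that of CCR6 0.03 and -1.62, and that of CXCR3 -0.78 and 0.39. The difference between the sexes was not past the threshold in any of them (limma interaction, adjusted p = 0.894, 0.894 and 0.875). None of the 68 genes passed (0%), and 7 (10.3%) had an unadjusted p under 0.05. The female values of Il22ra2 and CCR6 include the pool in which both were at the floor. The male values of CXCR3 include the high salt pools in which it did not pass the highest negative control.

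CCR6 and Il22ra2 varied together from pool to pool. On centred log2 values their correlation over the 8 pools was r = 0.94 (exact permutation p adjusted over the 21 pairs of genes = 0.00365) and Spearman's rho = 0.93 (adjusted exact permutation p = 0.0469). Without the 2 pools farthest from the median of CCR6 r was 0.93. On the deposited scale r was 0.92 and rho 0.86, with an adjusted exact p of 0.113 for rho. In the 6 pools where both were above the floor, r was 0.96 on centred values (exact permutation p = 0.00972) and rho 0.83 (exact permutation p = 0.0583). On the deposited scale the same 6 pools gave r = 0.93 (exact permutation p = 0.0111) and rho = 0.66 (exact permutation p = 0.175). Of these pools, CCR6 passed the highest negative control in only 3. In the control male trio, the control female pair and the high salt female pair it had 3, 10 and 7 barcodes, against 8, 10 and 7 for that control. The correlation thus rests in part on CCR6 values not above background. The pair was picked from the 21 for its correlation over the 8 pools. The p-values of the 6 pools are not adjusted for that choice. Both genes were lowest in the high salt female trio and highest in the control female trio on the deposited scale. Within a diet or a sex there are 4 pools, too few for a correlation. No other pair passed on the centred scale. On the deposited scale GATA-3 and Il17a had r = -0.82 (adjusted exact permutation p = 0.0182), but -0.45 after centring (adjusted exact p = 0.619), with 6 of the 8 Il17a values at the floor.

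The levels of CXCR3 and GATA-3 followed the scale of the pool. Against the log2 value of 1 barcode, which is large in pools with few barcodes of the reference genes, the log2 level of CXCR3 had r = 0.88 (exact permutation p adjusted over 9 genes = 0.0174) and rho = 0.93 (adjusted exact p = 0.0201), and r = 0.80 without the 2 pools farthest from the median. GATA-3 had r = 0.89 (adjusted exact permutation p = 0.018) and rho = 0.69 (adjusted exact p = 0.156), and r = 0.52 without the 2 pools farthest out, so that the relation rests on those pools. A level is the barcode count times this scale, so the 2 measures share a factor, and even equal counts in every pool would give a positive r. The permutation p-values do not allow for this, and no conclusion is drawn from them. CCR6 had r = -0.16 and Il22ra2 r = -0.34. One barcode was worth 3.85, 1.07, 3.10 and 1.16 in the female pools and 1.44, 1.04, 0.409 and 0.540 in the male pools, so the 2 largest were female and the 3 smallest male, and the part of the scale in the difference of CXCR3 and GATA-3 between sexes was not tested.

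**Figure D4:**
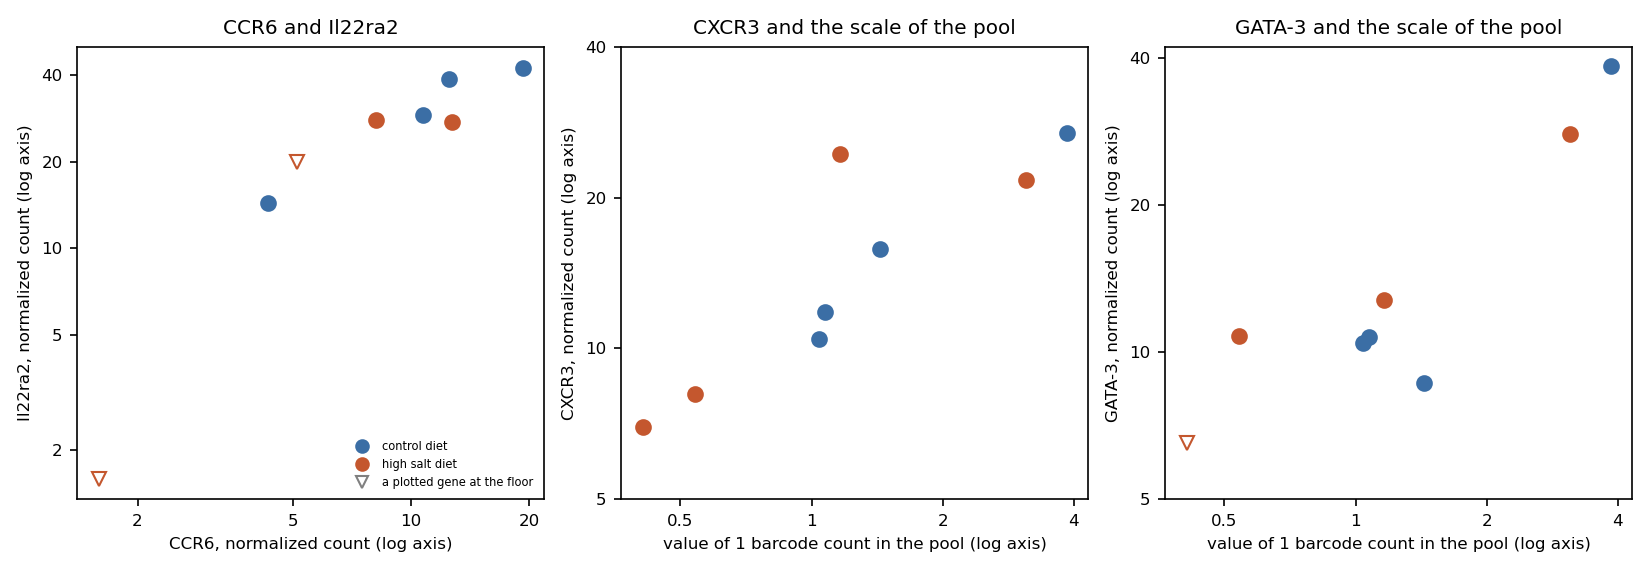
Left, Il22ra2 against CCR6 in the 8 pools (normalized counts, log axes), where the points rise together from the pool with both at the floor. Middle and right, CXCR3 and GATA-3 against the value of 1 barcode in the pool (log axes), where the highest values of GATA-3 stand at 3.85 and 3.10, and open triangles mark a gene listed at the floor.

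Of the other 67 target genes, those most like CXCR3 over the 8 pools on centred log2 values were CHAT, the enzyme that makes acetylcholine, and NOS, a nitric oxide synthase. CHAT had r = 0.95 (exact permutation p adjusted over the 67 genes = 0.0266) and rho = 0.95 (adjusted exact p = 0.0382). NOS had r = 0.89 (adjusted exact permutation p = 0.122) and rho = 1.00 (adjusted exact p = 0.00332). Against the value of 1 barcode, CHAT had r = 0.88 (exact permutation p adjusted over 9 genes = 0.0112). NOS had r = 0.71 (adjusted exact permutation p = 0.113). Both genes were picked from the 67 for their likeness to CXCR3, whose level itself followed this value. The p-values against the value of 1 barcode are not adjusted for that choice, and no conclusion is drawn from them. Without the 2 pools farthest from the median of CXCR3, r was 0.89 for CHAT and 0.87 for NOS. The part of the scale in these likenesses was not tested.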

How the data were processed

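Whole colon RNA of 8 pools was measured by the authors with the nCounter and processed with nSolver 4.0; its settings were not given in the sources used here. The deposited values are a signal, normalized counts of 68 target and 3 reference genes and unscaled counts of 12 control probes. All 8 columns were mapped to pools through the sample labels. Values above the floor proved to be multiples, within 0.006, of a step fixed in each pool, which gave 487 barcode counts of target and reference genes; 81 values were at the floor. Precision is limited by the counts, and exact 95% Poisson intervals are given.

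The 68 target genes were fitted with limma 3.58.1 (R 4.3.3) on log2(value + 1), each pool centred as described, with Benjamini-Hochberg adjustment over the 68. Exact permutation tests were two-sided. They ran over the 70 assignments of the pools for differences between groups, and over all orders of the pools for correlations. The fit was tested on simulated data. Alternatives were other centrings, pseudocounts, filters, floors, covariates, weights and tests, other limits of detection, and leaving out each pool. The members, lists and tests were chosen with earlier results of these data known. The text names the 7 members, 4 other lymphocyte genes, the epithelial markers and the 2 genes most like a member above the floor in all pools. CD11C, CD11b and Cd86 were named after their values were seen. So were the enteric neuron genes and the small intestine and Paneth cell genes. Sequences and locations are from RefSeq (GRCm38.p6). Python 3.11.15, pandas 2.3.3 and scipy 1.17.1 were used.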

Additional observations from a re-analysis of the deposited data

Results flagged for a closer look

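Of 22 groups of 4 pools, those of the 7 genes and the 4 other lymphocyte genes on each diet, 2 had a pool far from the other 3, and chance alone would give about 1.1. GATA-3 was 38.54 in the control female trio (mice 1, 2 and 3), against 8.63 to 10.74 in the other control pools. CCR2, a chemokine receptor of monocytes and memory lymphocytes, was 158.03 in that same pool, against 34.36 to 41.7 in the others. That pool had the lowest recovered total, 13574 barcodes, and the part of its depth in both values was not tested.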

How the results depend on the processing

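No call of any of the 7 genes changed: 138 of 150 alternative diet differences kept their direction and none passed an adjusted p of 0.05, the lowest being 0.0616 for Il22ra2 without the control male trio. The count of target genes past that threshold, 0 as reported, was 3 with a pseudocount of 10, 3 with a common floor, 2 among genes above the floor in all pools and 1 with a minimum mean of 20, and 0 to 4 with each pool left out (4 without the control male trio). None of the genes called was among the 7. The log2 diet difference of Il23r turned to -0.12 with centring on the mean, -0.089 with a common floor, -0.32 with the negative controls subtracted, -0.11 with centring on the median deviation and -0.11 without both female trios. With each pool left out it ran from -0.35 to 0.35 for Il23r, -0.69 to 0.16 for CXCR3, -0.78 to 0.099 for GATA-3, -0.91 to 0.25 for Il17a, -1.61 to -0.53 for CCR6 and -1.84 to -0.49 for Il22ra2; the lowest of the last 2 came without the high salt male trio. The sex difference turned to -0.30 for T-bet, -0.39 for CCR6 and -0.059 for Il23r with centring on the median deviation, to -0.023 for CCR6 on the deposited scale and to 0.069 for Il17a with the negative controls subtracted. With each pool left out it ran from -0.19 to 0.70 for T-bet, -0.54 to 0.70 for CCR6, -1.02 to 0.61 for Il22ra2, -1.30 to -0.14 for Il17a and 0.14 to 0.80 for Il23r. The interaction turned to -0.014 for T-bet, -0.18 for GATA-3 and -0.22 for Il23r with centring on the median deviation and to 0.33 for Il17a with the negative controls subtracted. Without a change of sign, subtracting the negative controls moved the diet difference from -0.19 to -1.05 for Il17a and from -0.15 to -0.66 for GATA-3, and the interaction of Il23r from 0.13 to 2.56 and of T-bet from 0.34 to 2.17. The cause was not tested. Above the mean plus 2 SD of the negative controls lay 1 value of T-bet, 5 of CXCR3, 4 of GATA-3, 3 of CCR6, 1 of Il23r and 0 of Il17a; above the highest negative control, 1 of T-bet, 3 of CCR6, 1 of Il23r and 0 of Il17a.

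Centring on the median deviation, subtraction of the negative controls, voom on recovered counts and leaving out both female trios were chosen after seeing the data. edgeR was not run. The pools of the same sex and numbers hold different mice, and their deviations correlated at -0.52 to 0.16. Both female trios had low totals of barcodes, 13574 on the control diet and 26893 on the high salt diet. An effect shared by pools of the same number was not tested. With the number as a replicate block the count of genes called stayed at 0, and the diet difference of T-bet was 1.01. Counts of 3 to 6 barcodes limit T-bet, Il23r and Il17a most.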
